A study of Homo sapiens with 6 samples.

Results

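Metallothioneins are small cysteine-rich proteins that bind zinc and copper, and 7 of their genes were followed here with MTF1, the transcription factor that senses zinc, and SLC30A1, the zinc exporter of the plasma membrane. The 9 genes (MT2A, MT1E, MT1X, MT1F, MT1G, MT1A, MT1M, MTF1 and SLC30A1) were taken by name from the 58302 genes listed in each library. They were chosen with their levels in these libraries known, so their differences between the groups are given as a description, with no test. RNA sequencing had been done on HCCLM3 cells, a line from human hepatocellular carcinoma, to look for genes downstream of SCARNA13. One group of 3 libraries came from HCCLM3 cells transfected with SCARNA13 ASO, an antisense oligonucleotide directed at the small Cajal body RNA SCARNA13. The other group of 3 came from HCCLM3 cells transfected with Control ASO, so every library carries a transfection and none is from untouched cells. All cells are of a single line, and the labels give no dose, no time after transfection and no separate cultures. A p-value here therefore reflects nothing but how far these libraries lie apart, and part of that may be technical. The labels also do not say that libraries of the same replicate number belong together.

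Free zinc in a cell is bound by MTF1, which then enters the nucleus and switches on metallothionein genes and SLC30A1 through metal response elements in their promoters. The proteins that result bind the metal or carry it out of the cell. In liver, metallothioneins are also known to rise with glucocorticoids and with inflammation, and their loss has been described in hepatocellular carcinoma.

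Between 20457474 and 25173559 reads were assigned to genes per library. SCARNA13 itself was covered by 2, 3 and 2 reads in the SCARNA13 ASO libraries, against 6, 5 and 2 reads in the Control ASO libraries. Its level was 0.373 ± 0.10 FPKM after SCARNA13 ASO and 0.652 ± 0.0852 FPKM after Control ASO (SD, n = 3 each), with p = 0.1 by an exact two-sided permutation test, the smallest that 3 against 3 libraries allow. As RPM, reads of a gene scaled to all assigned reads of the library, the same exact permutation test gave p = 0.3, so the knockdown was not resolved at this depth. Replicate 3 of both groups stood apart: its 2 libraries correlated at 0.980 with each other but at 0.900 to 0.939 with the other 4, which correlated at 0.988 or more among themselves (log2 values across genes). Of 11 hepatocyte and hepatoma markers only KRT8, KRT18 and SERPINA1 averaged over 1 FPKM, while ALB, APOB, FGB and GPC3 were listed at 0 in all 6 libraries. The 11 summed to between 1647 and 3372 FPKM after SCARNA13 ASO and between 1792 and 4547 FPKM after Control ASO. Nearly all of that was the keratins KRT8 and KRT18, with means of 1012 and 1233 FPKM after SCARNA13 ASO and 1151 and 1574 FPKM after Control ASO. SERPINA1 averaged 1.87 FPKM after SCARNA13 ASO and 2.25 FPKM after Control ASO. Fibroblast markers summed to between 6.24 and 8.60 FPKM after SCARNA13 ASO and between 5.83 and 6.89 FPKM after Control ASO, with COL3A1 alone above 1 FPKM. Endothelial markers (4 genes, KDR at 0) summed to at most 0.0703 FPKM after SCARNA13 ASO and 0.106 FPKM after Control ASO. The immune markers CD3E, of T cells, and LYZ, of myeloid cells, were listed at 0 in all 6 libraries.

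The coding sequences of the 7 metallothionein genes are nearly the same length and differ at few bases, which bears on how reads can be told apart. Each has 186 bases with its stop codon and 61 codons, of which 20 are for cysteine, except MT1G, with 189 bases and 62 codons. Pairwise identity runs between 88.7% for MT1F with MT1X and 95.2% for MT1G with MT2A. The coding sequences of MT2A and MT1E, the members that carry nearly all of the reads, are printed here 5′ to 3′ from GENCODE 29 transcripts (GRCh38, plus strand of chromosome 16), and capitals mark the 14 of 186 bases at which they differ.
MT2A: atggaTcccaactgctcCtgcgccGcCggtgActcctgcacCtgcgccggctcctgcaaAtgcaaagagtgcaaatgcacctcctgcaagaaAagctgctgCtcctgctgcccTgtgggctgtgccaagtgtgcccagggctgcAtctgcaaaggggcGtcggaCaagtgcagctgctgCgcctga
MT1E: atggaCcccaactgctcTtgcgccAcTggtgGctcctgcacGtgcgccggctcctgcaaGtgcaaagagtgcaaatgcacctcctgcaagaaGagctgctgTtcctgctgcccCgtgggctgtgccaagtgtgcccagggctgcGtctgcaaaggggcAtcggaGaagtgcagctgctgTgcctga
Of the 1390 distinct 50-base words in MT2A transcripts, none occurs in MT1E transcripts, while 22 occur in MT1G and 18 in MT1X. The processed copy MT2P1 on chromosome 4 is closer, with 178 of 183 aligned coding bases identical to MT2A and 20 of its 134 words shared with it. Counts of exact words do not cover reads aligned with mismatches.

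The promoters of the members differ in how many metal response element cores they hold. The core was searched as TGCACNC and TGCGCNC on both strands, in the 250 bases before and the 50 bases after the RefSeq start (GRCh38.p14), with no overlapping matches. The table of promoters held MT2A, MT1X, SLC30A1 and MTF1 among the members. Their RefSeq starts are not the starts of the gene rows measured. The RefSeq starts of MT2A, MT1X and MTF1 lie inside their rows. The whole stretch printed for MT2A is inside its row, chr16:56608199-56609497. The RefSeq start of SLC30A1 lies outside its row, chr1:211571568-211578742. The 250 bases before the start are printed for the 2 metallothioneins and for SLC30A1, the zinc exporter, since MTF1 is known to act through this element, and capitals mark the matches.
MT2A, chr16:56608334-56608583, plus strand: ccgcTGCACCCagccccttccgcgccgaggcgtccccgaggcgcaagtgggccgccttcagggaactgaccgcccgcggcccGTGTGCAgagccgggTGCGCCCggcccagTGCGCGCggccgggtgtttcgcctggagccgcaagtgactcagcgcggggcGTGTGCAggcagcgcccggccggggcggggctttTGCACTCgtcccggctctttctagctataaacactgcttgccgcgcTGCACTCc
MT1X, chr16:56682220-56682469, plus strand: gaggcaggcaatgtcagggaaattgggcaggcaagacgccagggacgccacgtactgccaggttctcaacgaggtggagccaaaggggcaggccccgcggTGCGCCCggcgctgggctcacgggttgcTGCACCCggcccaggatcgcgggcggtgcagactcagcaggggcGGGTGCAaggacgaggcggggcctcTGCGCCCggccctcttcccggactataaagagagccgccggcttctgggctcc
SLC30A1, chr1:211579162-211579411, minus strand: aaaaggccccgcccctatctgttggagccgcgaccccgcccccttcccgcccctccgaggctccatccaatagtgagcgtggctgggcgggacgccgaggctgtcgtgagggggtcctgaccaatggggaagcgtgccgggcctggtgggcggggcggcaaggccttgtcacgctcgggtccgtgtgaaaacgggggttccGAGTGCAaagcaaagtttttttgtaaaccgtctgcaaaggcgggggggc
MT2A held 8 matches in the whole window, 7 of them before the start, and MT1X held 4. SLC30A1 held 2, with 1 before the start, and MTF1 held none. Over all 35116 promoters of the same length, 29.6% held at least 1 match, 8.60% at least 2, 0.601% at least 4 and 0.0199% (7 promoters) at least 8. A match is a description of letters and not a site shown to be bound. MT1H, a metallothionein gene between MT1G and MT1X in the cluster, also held 8 matches, yet it was listed at 0 in all 6 libraries. Promoters with many cores therefore occurred both in the most abundant metallothionein gene and in one with no reads.

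MT2A, the major metallothionein of most human tissues, was the most abundant member and was lower after SCARNA13 ASO within each replicate number. The gene (ENSG00000125148) lies at chr16:56608199-56609497 on the plus strand. MT2A measured 943.9, 828.6 and 2244.6 FPKM (a fragment count divided by gene length and by a size for the library) in SCARNA13 ASO replicates 1, 2 and 3, against 1255.4, 1160.3 and 3454.9 FPKM in Control ASO replicates 1, 2 and 3. Each SCARNA13 ASO library was below the Control ASO library of its number, but the groups overlap, since both replicate 3 libraries were far above the other 4. The means were 1339 ± 786 FPKM after SCARNA13 ASO and 1957 ± 1298 FPKM after Control ASO (SD, n = 3 each), so the SD within a group exceeds the difference between the means. Within replicate numbers 1, 2 and 3 the FPKM of MT2A differed by -24.8%, -28.6% and -35.0%. With between 30690 and 58745 reads per library, the FPKM ratio within a number had exact 95% intervals of 0.742 to 0.762, 0.704 to 0.725 and 0.642 to 0.658. They cover counting error only and rest on the library sizes of the FPKM scale. On the RPM scale MT2A had 1515, 1316 and 2216 after SCARNA13 ASO and 1970, 1836 and 2843 after Control ASO, and the groups overlap. The RPM ratios were 0.769, 0.717 and 0.780, so replicate 3 showed the smallest difference there and the largest in FPKM. Bulk RNA cannot tell fewer cells with the transcript from less of it per cell.

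MT1E, a metallothionein close to MT2A in the cluster, was the next most abundant member, and its difference was smaller. The gene (ENSG00000169715) lies at chr16:56625475-56627112 on the plus strand. Its level was 221.6, 212.1 and 332.8 FPKM in SCARNA13 ASO replicates 1, 2 and 3, against 257.5, 235.8 and 467.5 FPKM in Control ASO replicates 1, 2 and 3. The FPKM ranges overlap. On the RPM scale, however, MT1E had 288, 273 and 266 in SCARNA13 ASO libraries and 327, 302 and 312 in Control ASO libraries, with no overlap. Its FPKM differed by -13.9%, -10.0% and -28.8% within the 3 numbers, on means of 256 ± 67.1 FPKM after SCARNA13 ASO and 320 ± 128 FPKM after Control ASO (SD, n = 3 each).

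MT1X had the lowest ratio between the groups among the well-covered metallothioneins, at a level far below MT2A. The gene (ENSG00000187193) lies at chr16:56682424-56684196 on the plus strand. MT1X measured 7.0, 5.99 and 10.7 FPKM in SCARNA13 ASO replicates 1, 2 and 3, against 11.9, 7.35 and 21.7 FPKM in Control ASO replicates 1, 2 and 3. Replicate 2 showed the smallest difference (-18.4%) and replicates 1 and 3 the larger ones (-41.0% and -50.7%). The ratios were 0.590, 0.816 and 0.493 with exact 95% counting intervals of 0.516 to 0.674, 0.697 to 0.954 and 0.425 to 0.570, so the numbers differed among themselves by more than counting error. On the RPM scale MT1X had 15.3, 13.0 and 14.4 after SCARNA13 ASO and 25.4, 15.9 and 24.4 after Control ASO, with no overlap.

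**Figure D1:**
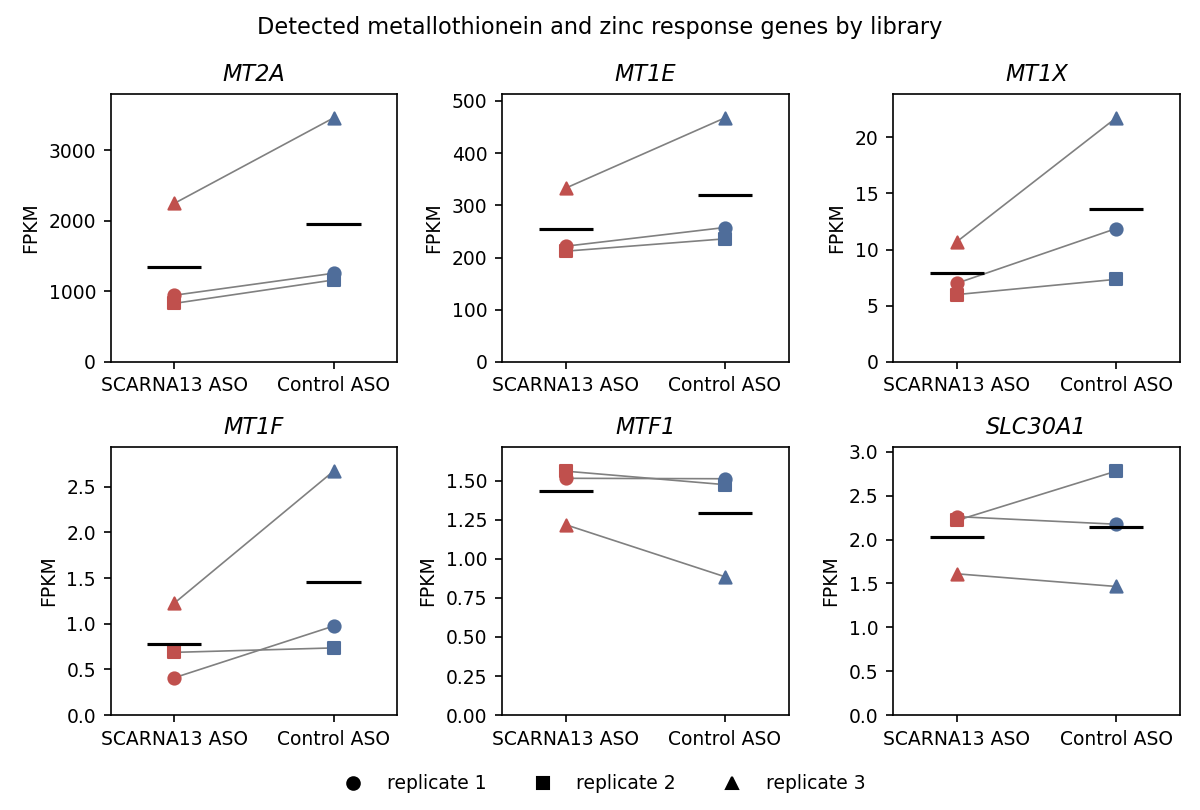
FPKM of the 6 members whose mean reached 1 FPKM, 1 panel a gene, SCARNA13 ASO on the left and Control ASO on the right. Points are libraries (shape gives the replicate number), grey lines join libraries of a number, black bars are group means; the 4 metallothioneins were lower after SCARNA13 ASO in each number, and replicate 3 is high for them and low for MTF1 and SLC30A1.

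MT1F was measured from few reads, and MT1G, MT1A and MT1M were at or near the limit of detection. MT1F (ENSG00000198417, chr16:56657694-56660698, plus strand) measured 0.409, 0.687 and 1.23 FPKM after SCARNA13 ASO and 0.975, 0.736 and 2.67 FPKM after Control ASO, from 21, 37 and 36 reads after SCARNA13 ASO against 56, 37 and 66 reads after Control ASO. Its exact 95% counting intervals for the ratio were 0.242 to 0.705, 0.576 to 1.52 and 0.297 to 0.699, so replicate 2 showed no difference beyond counting error. MT1G (ENSG00000125144, chr16:56666731-56668065, minus strand) had no read in any SCARNA13 ASO library and 1, 1 and 2 reads in the Control ASO libraries. A count of 0 allows MT1G up to 0.147, 0.14 and 0.257 FPKM in the SCARNA13 ASO libraries. These limits lie above the values in the Control ASO libraries of the same number (0.0438, 0.0501 and 0.204 FPKM). No difference in MT1G was therefore detectable at this depth. MT1A (ENSG00000205362, chr16:56638666-56640087, plus strand) and MT1M (ENSG00000205364, chr16:56632233-56633986, plus strand) had 0 reads in all 6 libraries. That allows at most 0.249 to 0.579 FPKM for MT1A and 0.105 to 0.243 FPKM for MT1M, depending on the library.

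Summed over the 7 genes, metallothionein reads made up a smaller share of each SCARNA13 ASO library than of the Control ASO library of its number. The share was 0.182%, 0.160% and 0.250% of assigned reads after SCARNA13 ASO and 0.233%, 0.216% and 0.318% after Control ASO. On this scale, which does not use the deposited normalization, the sum differed by -21.8%, -25.6% and -21.5% in numbers 1, 2 and 3. MT2A supplied 83.3%, 82.1% and 88.7% of these reads after SCARNA13 ASO and 84.7%, 85.2% and 89.3% after Control ASO. MT1E supplied 15.8%, 17.02% and 10.7% after SCARNA13 ASO and 14.1%, 14.0% and 9.79% after Control ASO. The make-up of the family thus moved slightly toward MT1E in each number, by less than the gap between replicate 3 and the other libraries.

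The zinc sensor and the zinc exporter were not lower in every number, as the detected metallothioneins were. MTF1 (ENSG00000188786, chr1:37809567-37859620, minus strand), which activates metallothionein genes, measured 1.51, 1.56 and 1.22 FPKM after SCARNA13 ASO and 1.51, 1.47 and 0.885 FPKM after Control ASO. Replicates 1 and 2 were nearly level, and only replicate 3 was clearly higher after SCARNA13 ASO, so the groups overlap at 1.43 ± 0.186 FPKM after SCARNA13 ASO and 1.29 ± 0.351 FPKM after Control ASO (SD, n = 3 each). SLC30A1 (ENSG00000170385, chr1:211571568-211578742, minus strand), which carries zinc out of the cell, measured 2.26, 2.22 and 1.61 FPKM after SCARNA13 ASO and 2.17, 2.78 and 1.47 FPKM after Control ASO. Its direction differed between the numbers, with log2 differences of 0.046, -0.27 and 0.10, and the groups overlap at 2.03 ± 0.364 FPKM after SCARNA13 ASO and 2.14 ± 0.657 FPKM after Control ASO (SD, n = 3 each).

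Fold differences were estimated with limma-trend on log2(FPKM + 0.5), a scale that understates changes of low genes, for the 10120 genes whose mean over the libraries reached 1 FPKM. MT2A, MT1E, MT1X, MT1F, MTF1 and SLC30A1 passed that filter, and MT1G, MT1A and MT1M did not. The log2 difference, SCARNA13 ASO minus Control ASO, was -0.51 ± 0.59 for MT2A, -0.29 ± 0.37 for MT1E, -0.66 ± 0.43 for MT1X and -0.54 ± 0.43 for MT1F (SE). For MTF1 it was 0.12 ± 0.22 and for SLC30A1 -0.04 ± 0.25. Without Control ASO replicate 3 the values were -0.00055 for MT2A, 0.022 for MT1E and -0.050 for MTF1, and over the settings tried SLC30A1 ran from -0.24 to 0.13, MT1X from -1.02 to -0.27 and MT1F from -0.81 to -0.13. The fit called none of the 10120 genes at an adjusted p under 0.05 (0% called, limma-trend; 173 genes at an unadjusted p under 0.05), and limma-voom on the recovered reads also called none (162 unadjusted). With a correction of each library for GC content and the replicate number as a block, the same log2 differences were -0.46 ± 0.074 for MT2A, -0.24 ± 0.070 for MT1E, -0.61 ± 0.13 for MT1X, -0.48 ± 0.16 for MT1F, 0.13 ± 0.10 for MTF1 and -0.07 ± 0.099 for SLC30A1. That fit called 526 of 10104 genes (5.21%), 217 of them lower (2.15%) and 309 higher (3.06%) after SCARNA13 ASO. The members' own calls are not given, since the members were chosen on this contrast. The count over all genes was 14 without replicate number 1, 0 without number 2 and 763 without number 3. FPKM was lower in 3 of 3 numbers for MT2A, MT1E, MT1X and MT1F, as it was for 29.6% of all genes tested, and RPM for the same 4 members, as for 18.8% of all genes. Groups that do not overlap in RPM, as for MT1E and MT1X, occurred in that direction in 3.57% of all genes. These counts stand beside their backgrounds as a description, since the members were chosen on this contrast.

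**Figure D2:**
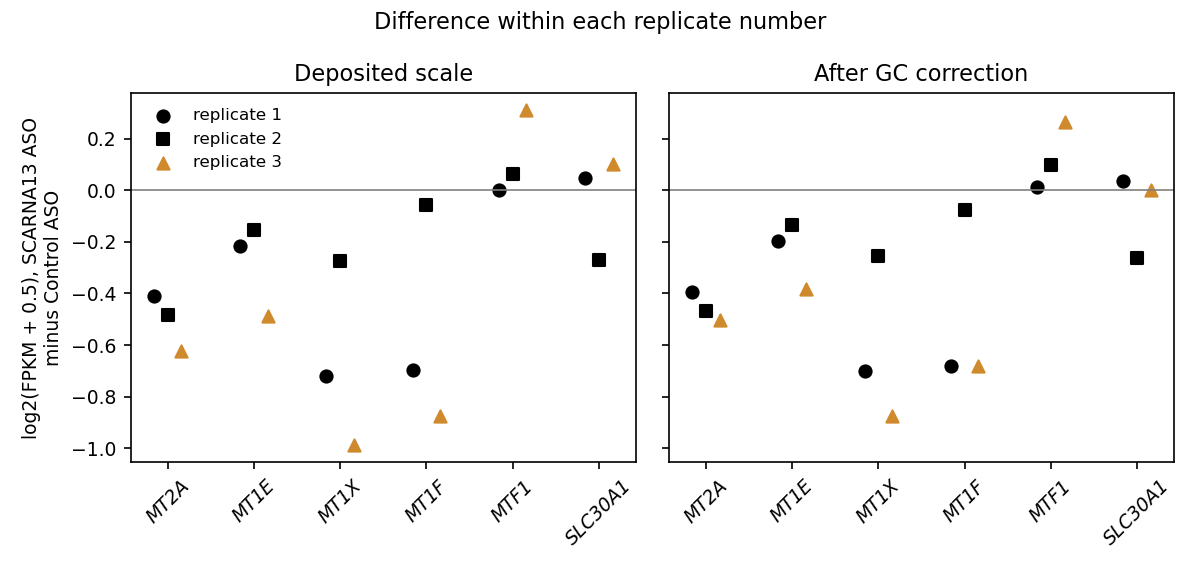
Difference in log2(FPKM + 0.5), SCARNA13 ASO minus Control ASO, within each replicate number (shapes) for 6 members, as deposited on the left and after GC correction on the right. The MT2A values lie between -0.62 and -0.41 as deposited and between -0.50 and -0.39 after correction, while MTF1 lies at or above 0 in every number and SLC30A1 on both sides of 0 as deposited.

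Replicate 3 differed from the other libraries along GC content, and on the FPKM scale the detected metallothioneins were high in it. In RPM, replicate 3 was still the highest of its group for MT2A and MT1F, but not for MT1E or MT1X. In the decile of genes with the highest GC content, the median deviation from the 6-library mean was -0.50, -0.39 and 0.76 on the log2 scale in SCARNA13 ASO replicates 1, 2 and 3, and -0.47, -0.45 and 1.05 in Control ASO replicates 1, 2 and 3. The trend was thus steeper in Control ASO replicate 3 than in SCARNA13 ASO replicate 3. MT2A, of 53.9% GC, deviated by 0.64 in SCARNA13 ASO replicate 3 and 1.26 in Control ASO replicate 3, where genes of its decile had medians of 0.38 in SCARNA13 ASO replicate 3 and 0.56 in Control ASO replicate 3. MT1E deviated by 0.27 in SCARNA13 ASO replicate 3 and 0.76 in Control ASO replicate 3, and MT1X by 0.12 in SCARNA13 ASO replicate 3 and 1.11 in Control ASO replicate 3. Genes of their decile had medians of 0.19 in SCARNA13 ASO replicate 3 and 0.25 in Control ASO replicate 3. MT1F deviated by 0.22 in SCARNA13 ASO replicate 3, below its decile median of 0.56. In Control ASO replicate 3 it deviated by 1.09, above its decile median of 0.74. The part of this trend in the members' differences was not tested. After the GC correction MT2A still deviated by 0.34 in SCARNA13 ASO replicate 3 and 0.85 in Control ASO replicate 3. Within replicates 1 and 2 alone, where these trends lie close together, a block fit, a setting chosen after seeing the data, gave MT2A a log2 difference of -0.45. That fit called 629 of 10120 genes (6.22%), 293 of them lower (2.9%).

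**Figure D3:**
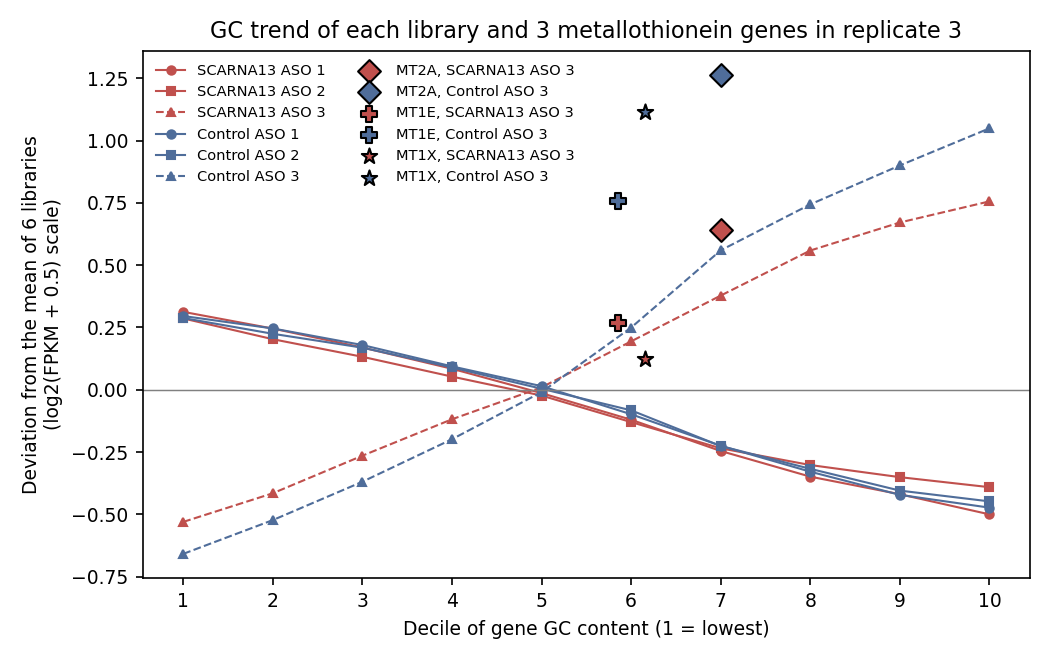
Median deviation of genes from their 6-library mean (log2(FPKM + 0.5) scale) by decile of gene GC content, 1 line a library, with MT2A, MT1E and MT1X of both replicate 3 libraries as large symbols. Replicate 3 of both groups rises with GC content while the other 4 libraries fall, and MT2A sits at 0.64 in SCARNA13 ASO replicate 3 and 1.26 in Control ASO replicate 3.

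Other metallothionein rows were then examined, since reads of so similar a family can be exchanged between copies. Of 9 such genes on a list found by name, 5 were listed at 0 in all libraries and MT1L was the only one to pass the filter. MT2P1, which was not on that list, also passed the filter. MT1L (ENSG00000260549, chr16:56617476-56618818), annotated as a transcribed unitary pseudogene between MT2A and MT1E, measured 23.2, 23.1 and 46.2 FPKM after SCARNA13 ASO and 35.3, 33.8 and 83.6 FPKM after Control ASO. It was lower after SCARNA13 ASO in each number. Its log2 difference was -0.66 ± 0.47 (SE; limma-trend adjusted p = 1.0). Under GC correction with the block it fell, at -0.61 ± 0.061 (limma-trend adjusted p = 0.0360). MT1L shares none of its 362 words of 50 bases with a transcript of any member. Exact words do not cover reads aligned with mismatches, so exchange of reads was not tested. MT2P1 (ENSG00000162840, chr4:68376323-68376505), the processed copy of MT2A, measured 33.8, 40.6 and 84.0 FPKM after SCARNA13 ASO and 51.2, 38.2 and 156.5 FPKM after Control ASO. It was not lower in replicate 2 and missed the threshold under GC correction with the block, at -0.40 ± 0.15 (limma-trend adjusted p = 0.145), and reads from its stretch shared with MT2A cannot be assigned to either with certainty.

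The metallothionein rows on chromosome 16 span 119148 bases with no other tested protein-coding gene between them, and those on either side did not pass the test. The 5 nearest tested protein-coding genes on each side reach out to IRX3, 2278286 bases to the left, and FAM192A, 468270 bases to the right. None of these genes was called by limma-trend under any setting. At an unadjusted p under 0.05 the count was 0 of 10 in the fit without a block, 5 of 10 with GC correction and block, and 1 of 10 by limma-voom. Over all genes 173 of 10120, 3167 of 10104 and 162 of 10120 did so in these fits. BBS2, a gene of the primary cilium 44766 bases to the left, had a log2 difference of -0.0044 ± 0.097 with GC correction and block. NUP93, a nuclear pore protein gene 45909 bases to the right, had -0.18 ± 0.058 in the same fit (adjusted p = 0.113). The furthest from 0 was NLRC5, a regulator of MHC class I genes, with 1.62, 1.74 and 2.34 FPKM after SCARNA13 ASO against 1.09, 1.14 and 1.60 FPKM after Control ASO and a log2 difference of 0.50 ± 0.096 (adjusted p = 0.0526). Differences between the cluster and its neighbours were not tested.

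**Figure D4:**
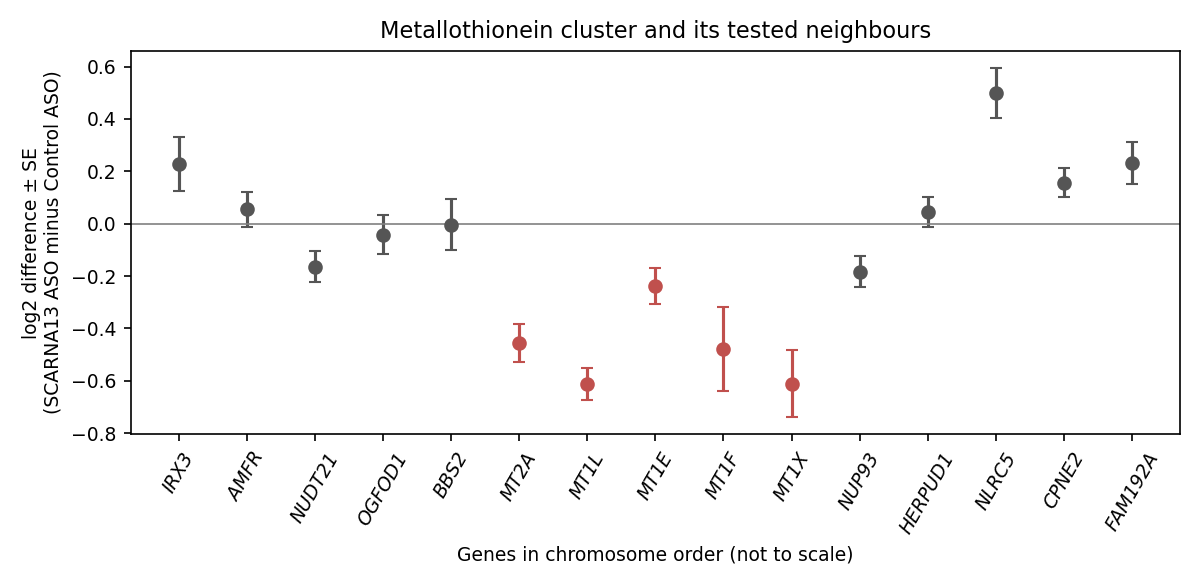
Log2 difference, SCARNA13 ASO minus Control ASO, from the fit with GC correction and replicate block (points, with SE as bars) for the detected metallothionein rows of chromosome 16 (red) and the 5 nearest tested protein-coding genes on each side (grey), in chromosome order and not to scale. The 5 metallothionein rows lie between -0.61 and -0.24 and the neighbours between -0.18 and 0.50.

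Zinc transporters were followed next, as genes that move the metal metallothioneins bind. None of 3 tested exporters of the SLC30 family and none of 10 tested importers of the SLC39 family passed with GC correction and block. Over all genes 5.21% did. SLC30A5, SLC30A6 and SLC30A7, which load zinc into the secretory pathway, had log2 differences of -0.10 ± 0.11, 0.03 ± 0.089 and 0.09 ± 0.090 in that fit. Among the importers the median log2 difference was -0.12 and the range -0.41 to 0.44, beside a median of 0.00026 over all 10104 genes. SLC39A1, a zinc importer of the plasma membrane, measured 55.2, 53.5 and 103.9 FPKM after SCARNA13 ASO and 68.1, 65.4 and 184.1 FPKM after Control ASO. It was lower in each number, as were 29.6% of all genes tested, at -0.41 ± 0.086 (limma-trend adjusted p = 0.0608). In the block fit of replicates 1 and 2 alone SLC39A1 fell (limma-trend adjusted p = 0.0411). SLC39A11, of the same family, went the other way, at 0.44 ± 0.096 with GC correction and block (limma-trend adjusted p = 0.0640). It measured 3.39, 3.91 and 4.17 FPKM after SCARNA13 ASO and 2.84, 2.47 and 2.89 FPKM after Control ASO. These groups do not overlap, as in 4% of all genes in that direction. SLC39A7, which releases zinc from the endoplasmic reticulum, differed by -0.04 ± 0.052 and SLC39A13 by 0.10 ± 0.057.

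Of the genes of copper handling, a metal that metallothioneins also bind, 1 of 9 tested rose and none fell with GC correction and block. Over all genes 3.06% rose and 2.15% fell in that fit. COMMD1, which takes part in copper export and in turning off NF-kappaB, measured 7.79, 8.81 and 9.25 FPKM after SCARNA13 ASO and 5.24, 4.96 and 6.68 FPKM after Control ASO. Every SCARNA13 ASO library was above every Control ASO library, as in 4% of all genes tested (4.44% in the other direction), and the log2 difference was 0.60 ± 0.089 (limma-trend adjusted p = 0.0404). SOD1, the copper and zinc superoxide dismutase, differed by -0.09 ± 0.063 and did not pass. ATP7B, the copper pump of hepatocytes, and CCS, the copper chaperone of SOD1, had 0.41 ± 0.087 and 0.35 ± 0.070 (adjusted p = 0.0605 and 0.0560) and did not pass either.

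Glucocorticoids and oxidants are other known inducers of metallothioneins, and their genes are given beside the 5.21% of all genes called with GC correction and block. Of 6 tested genes of the glucocorticoid receptor and its targets, 1 rose and none fell. That gene was CEBPD, a transcription factor of the acute phase response, with 14.9, 15.3 and 11.8 FPKM after SCARNA13 ASO and 10.1, 10.6 and 9.54 FPKM after Control ASO (log2 difference 0.54 ± 0.054, limma-trend adjusted p = 0.0360). NR3C1, the receptor, differed by -0.04 in that fit. PER1 had the lowest value of this list, at -0.35 ± 0.064, and did not pass (limma-trend adjusted p = 0.0507). It measured 3.26, 3.38 and 9.64 FPKM after SCARNA13 ASO and 4.23, 4.13 and 15.7 FPKM after Control ASO. Of 10 genes of metal stress and glutathione, 1 rose and 2 fell. SLC7A11, which imports cystine, the source of cysteine for glutathione, rose to 4.77, 4.19 and 1.94 FPKM after SCARNA13 ASO, against 2.88, 2.73 and 1.24 FPKM after Control ASO (0.54 ± 0.083, adjusted p = 0.0413). HSPA1A, an inducible HSP70 gene, fell to 20.9, 21.9 and 14.5 FPKM after SCARNA13 ASO, against 28.6, 29.7 and 22.3 FPKM after Control ASO (-0.43 ± 0.049, adjusted p = 0.0365). Its near-identical copy HSPA1B fell by 0.39 ± 0.060 on the log2 scale (adjusted p = 0.0413), and reads of the pair could be exchanged. HMOX1, heme oxygenase, the most abundant of the list at 123.7, 122.2 and 348.1 FPKM after SCARNA13 ASO and 116.4, 115.1 and 357.3 FPKM after Control ASO, did not pass (0.11 ± 0.051, adjusted p = 0.213).

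None of 8 tested partners of MTF1 or genes tied to zinc sensing passed in any of these fits. TXNRD2, a mitochondrial thioredoxin reductase, SELENOH, a selenoprotein, and HIF1A, the hypoxia factor, were the most abundant and differed by 0.09, 0.05 and 0.11 on the log2 scale with GC correction and block. PGF, placental growth factor, had the lowest value of the list, with 0.346, 0.435 and 0.971 FPKM after SCARNA13 ASO against 0.783, 0.888 and 3.19 FPKM after Control ASO. It was lower in each number and did not pass (-0.78 ± 0.16, limma-trend adjusted p = 0.0596). Over all 7 lists, 47 genes were tested, of which 3 rose, 3 fell and 41 did not pass in the corrected fit. That fit called 526 of all 10104 genes (5.21%), with 3.06% higher and 2.15% lower. The lists were chosen with earlier results of these data known, so these counts are a description. The median log2 difference was -0.04 over the list genes. Without correction or block none of the 47 passed by limma-trend (2 at an unadjusted p under 0.05) or by limma-voom (3 unadjusted). The corrected fit with the block called 0 of the 47 without replicate number 1 or number 2 and 7 without number 3. Over all 10104 genes it called 14 (0.139%) without number 1, 0 without number 2 and 763 (7.55%) without number 3. Over all settings the limma adjusted p-values of the 6 genes that passed ran from 0.0289 to 1.0. For the other list genes, neighbours and MT2P1 given with an adjusted p it also reached 1.0, and among these genes it went under 0.05 for SLC39A1 alone (0.0339 at the lowest).

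The genes whose pattern over the 6 libraries was most like that of MT2A were CDC20, RAE1, EMC6, IER3 and CCND3. Likeness was the root mean square difference of gene-centred, GC-corrected log2 values over the 6 libraries, ranked over 5226 genes whose mean reached 5 FPKM. CDC20, the activator of the anaphase-promoting complex, differed from MT2A by 0.0591 and RAE1, an mRNA export factor, by 0.0599, against a median of 0.457 over all genes. Both shared the high replicate 3 libraries, with CDC20 at 160.3, 150.2 and 453.8 FPKM after SCARNA13 ASO and 204.0, 197.3 and 820.2 FPKM after Control ASO. EMC6, a subunit of the membrane protein complex of the endoplasmic reticulum, differed from MT2A by 0.0631. IER3, an immediate early gene, differed by 0.0707 and CCND3, a D-type cyclin, by 0.0783. These 5 were picked as the nearest, so any other ranked gene is further from MT2A by construction. Among the ranked genes MT1X, at 0.296, had rank 912 and MT1E, at 0.312, rank 1069. SLC30A1 at 0.351, MT1F at 0.432 and MTF1 at 0.590 averaged under 5 FPKM and were outside the ranking. All of these members but MTF1 were nearer than the median of 0.457.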

How the data were processed

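Total RNA from 3 SCARNA13 ASO and 3 Control ASO libraries was made into libraries with a TruSeq RNA kit, per the labels' protocols. The authors deposited 1 FPKM value per gene and library. TopHat2 2.0.9, Bowtie2 2.0.6 and hg19 are named in the submitters' processing notes. What counted the reads, and with which annotation, is not given in the sources used here. Positions in the files are those of GRCh38, since 56636 of the 58039 identifiers that GENCODE 29 also holds (97.6%) share its start and end. FPKM times gene length was a whole multiple of 1 step per library (tolerance 0.01), which gave the read numbers printed here, 20457474 to 25173559 per library. The step implies library sizes between 13089653 and 30416028, so the FPKM scale differs from RPM most in replicate 3.

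Groups and replicate numbers came from the titles. Genes averaging 1 FPKM or more were fitted with limma-trend (limma 3.58.1, R 4.3.3) on log2(FPKM + 0.5), group as the only term, with Benjamini-Hochberg adjustment over all genes and a threshold of 0.05, two-sided. A further fit subtracted, per library, a loess trend (span 0.5) on GC content of the longest GENCODE 29 transcript and used the replicate number as a block. Deviations from group means of same-numbered libraries correlated at 0.835, 0.785 and 0.915, so the numbers were taken as pairs; crossing numbers 1 and 2 gave 0.805 and 0.814, so the values set apart only replicate 3. Other settings were pseudocounts of 0.1 and 1, no filter, scaling to total reads, limma-voom on the recovered reads and leaving out libraries. The fits were tested on simulated data. Intervals on ratios are exact, at 95%, and with the limit of 3 reads for a count of 0 they cover counting error only.

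The members and lists were chosen with earlier results of these data known. Text names all 9 members, list genes that passed in either fit and otherwise up to 3 of the most abundant per list, the nearest neighbours of the cluster, and the 5 genes most like MT2A. ATP7B, CCS, NR3C1, HMOX1, SOD1, MT1H, PGF, MT2P1, SLC39A11 and PER1 fall outside this rule and were named after their values were seen. Promoters are from RefSeq (GRCh38.p14).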

Additional observations from a re-analysis of the deposited data

How the results depend on the processing

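The number of genes called depended on the fit and on which libraries entered it. It was 0 in the fit without a block, 526 with GC correction and replicate block, between 0 and 763 when that fit left out 1 replicate number (0 without replicate 2, 14 without replicate 1, 763 without replicate 3), and 629 with a replicate block in replicates 1 and 2 alone, a setting chosen after seeing the data. Of the list genes, 6 were called with GC correction and replicate block, 0 to 7 with a number left out, and 6 in replicates 1 and 2 alone. The replicate block without GC correction called none, and no neighbour was called under any of these settings. MT2A, MT1X and MT1F were below 0 in all 17 alternatives, but MT2A came to -0.00055 without Control ASO replicate 3, beside -0.95 at the lowest. Without that library MT1E turned to 0.022 and MTF1 to -0.050; with other libraries left out they reached -0.49 and 0.22. SLC30A1, at -0.24 without Control ASO replicate 3, turned to 0.024 when scaled to total reads, 0.13 without Control ASO replicate 2, 0.085 without SCARNA13 ASO replicate 3 and 0.018 with GC correction and block without replicate 2. The cause of these shifts was not tested. Depth limits MT1F, MT1G, MT1A, MT1M and SCARNA13.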
